A study of Homo sapiens and Mus musculus with 28 samples.

Results

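A set of 7 genes that bring folate into the cell, hold it there and load it with one-carbon units was followed through RNA-seq of the human head and neck squamous cell carcinoma (HNSCC) line SCC1. They are the transporters SLC19A1 and SLC46A1 and the enzymes FPGS, TYMS, SHMT1, MTHFD1 and MTHFD1L. Each symbol matched 1 gene ID, so the set holds 7 of the 35135 gene IDs in the SCC1 files, and 7 of 7 passed the filter on low counts in both SCC1 experiments. The symbols were chosen with expression results of these SCC1 libraries already known, and which comparison chose them is not recorded. Their SCC1 values are therefore given as descriptions with no p-value, and how many pass the threshold is printed only beside the share of all genes that do.

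REXO4 is an RNA exonuclease, and the series was made from REXO4-deficient HNSCC. In the knockout experiment, 15 SCC1 libraries fell into groups of 3: the REXO4 knockouts R4KO_1 and R4KO_2 with vehicle, KO_2 cells with H151, KO_2 cells with BX_795, and Ctrl cells with vehicle. H-151 is a covalent inhibitor of STING, the membrane adaptor of cytosolic DNA sensing, and BX-795 blocks several kinases, among them TBK1, which STING recruits. In the iR4 experiment, 9 libraries fell into the groups iR4, H151_iR4 and Vehicle, 3 each, with iR4 written as the labels give it. A further 4 libraries are of mouse autochthonous HNSCC, 2 from Rexo4 knockouts (R4KO) and 2 from wild-type (Wt) animals. The labels give no dose, no exposure time, no number of clones, no age or strain of the mice and no Cre or promoter. They do not say whether replicates were separate cultures, so p-values measure only the spread between these libraries, which may be technical. Total counts ran from 16041474 to 27937636 per SCC1 library and from 16728311 to 18193703 per mouse library.

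Folates are cofactors that carry single carbons at several oxidation states. SLC19A1, the reduced folate carrier, takes up reduced folates and methotrexate and also imports the cyclic dinucleotide cGAMP, a STING ligand; SLC46A1 is the proton-coupled carrier that works at acidic pH. FPGS adds a glutamate tail that keeps folates in the cell. TYMS makes thymidylate, SHMT1 moves a carbon from serine to tetrahydrofolate in the cytosol, MTHFD1 interconverts the cytosolic forms, and MTHFD1L releases formate in mitochondria for use in the cytosol. Carbons from these reactions enter thymidylate, the purine ring and methionine, all of which dividing tumor cells need.

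The 250 bases before a transcription start of SLC19A1 are shown because this gene had the widest range of the set. RefSeq lists 4 starts for SLC19A1, and the one 8 bases from a GENCODE v29 start was taken (chr21:45541847-45542096 of GRCh38.p14, minus strand, overlapping 0 bases of the gene's annotated exons). Capitals mark TTTCCCGC, a form of the motif bound by E2F factors.

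SLC19A1 promoter: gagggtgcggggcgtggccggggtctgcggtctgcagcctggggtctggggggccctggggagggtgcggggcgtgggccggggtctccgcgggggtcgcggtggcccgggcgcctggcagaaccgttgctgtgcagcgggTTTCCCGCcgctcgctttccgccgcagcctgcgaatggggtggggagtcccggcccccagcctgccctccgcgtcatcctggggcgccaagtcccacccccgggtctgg

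In all RefSeq windows of 250 bases before a start, 3 motifs were searched on both strands, and capitals mark a match. They were TTTCCCGC, read as GCGGGAAA on the other strand, CACGTG, the E-box bound by MYC and related factors, and TGATGNAA, a composite element bound by ATF4 with C/EBP factors. TTTCCCGC or its complement was in 1.39% of the 35116 windows and, at any start, in 1.7% of the 27305 genes. Among the 7 genes it was in windows of SLC19A1 and TYMS. CACGTG was in 6.34% of windows and 7.73% of genes, and in windows of FPGS, MTHFD1 and MTHFD1L. TGATGNAA was in 3.14% of windows and 3.89% of genes, and in windows of MTHFD1L. A gene with more starts has more windows, and RefSeq lists 4 starts for MTHFD1L and 3 for FPGS. The following stretches of 30 bases, each on the plus strand and shown for the enzymes with an E-box or composite element, lie at chr9:127803093-127803122, chr14:64388323-64388352, chr6:150866320-150866349 and chr6:150866346-150866375. They are descriptions of letters, not of binding.

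FPGS: tgggcgcgacgaCACGTGggcctgcgctga
MTHFD1: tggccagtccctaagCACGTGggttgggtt
MTHFD1L, E-box: cacgcccggctcCACGTGcgcagccggccg
MTHFD1L, composite element: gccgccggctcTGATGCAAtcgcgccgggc

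The labels were checked first. REXO4 was at 9.39 ± 0.34 CPM (counts relative to the TMM-scaled library total; mean ± SD, n = 3) in R4KO_1, 6.30 ± 1.17 in R4KO_2, 17.9 ± 1.53 in KO_2 with H151, 18.9 ± 0.44 in KO_2 with BX_795 and 73.9 ± 3.19 in Ctrl. It was at 61.4 ± 2.88 CPM in iR4, 91.6 ± 2.28 in H151_iR4 and 96.2 ± 3.53 in Vehicle. The drug-treated KO_2 libraries stood apart from R4KO_2 in ways their label does not give. Over the 23 genes at least 4-fold higher in R4KO_1 than in both Ctrl and R4KO_2, the median log2 CPM was 0.92 in KO_2 with H151 and 1.04 in KO_2 with BX_795. It was 0.89 in R4KO_1, -2.03 in R4KO_2 and -1.95 in Ctrl, a contrast set by the choice of these genes. In the iR4 experiment it was -0.63 in iR4, -0.35 in H151_iR4 and -0.29 in Vehicle. The 6 drug-treated KO_2 libraries held 21355791 to 27937636 counts, against 17525228 to 17673227 in R4KO_2. Drug, cell population and sequencing depth cannot be told apart here, so drug results are given against R4KO_2 and also, as an alternative added after seeing the data, against R4KO_1. Of 9 squamous epithelial markers, 8 reached 1 CPM in SCC1, the leukocyte marker PTPRC stayed at or below 0.0988 CPM, and summed T cell markers at or below 0.526 CPM. Summed macrophage markers were at 22.1 to 28.7 CPM in R4KO_1, R4KO_2 and iR4, 8.34 to 10.9 CPM in the 3 drug groups and 12.7 to 15.9 CPM in Ctrl. Summed squamous markers were at 2770 to 3350 CPM in R4KO_1 and R4KO_2, 1920 to 2530 CPM in the KO_2 drug groups and 3930 to 4280 CPM in Ctrl, and at 1980 to 2080 CPM in H151_iR4, 2990 to 3040 CPM in iR4 and 2910 to 3090 CPM in Vehicle. Summed fibroblast markers were at 32.4 to 37.4 CPM in R4KO_1, 27.9 to 31.0 CPM in R4KO_2, 37.3 to 39.1 CPM in KO_2 with H151, 45.9 to 47.4 CPM in KO_2 with BX_795 and 21.4 to 22.0 CPM in Ctrl. They were at 32.7 to 38.4 CPM in iR4, 23.9 to 25.3 CPM in H151_iR4 and 20.5 to 23.9 CPM in Vehicle. Of 3 macrophage markers 1 reached 1 CPM in SCC1, and of 4 fibroblast markers 1, so each of these sums rests mainly on 1 gene. The part of the marker shifts in the results was not tested.

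SLC19A1 (ENSG00000173638, chr21:45493572-45544411, minus strand) was low in both knockouts and in iR4 cells. In KO_2 cells with either drug it overlapped or exceeded Ctrl, and in H151_iR4 it overlapped Vehicle. No group holds Ctrl cells with either drug or cells with H151 alone. A drug effect without REXO4 knockout or iR4 was therefore not tested. It had 22.1, 21.2 and 17.9 CPM in R4KO_1, against 51.4, 56.0 and 42.5 CPM in Ctrl. In R4KO_2 it had 10.3, 12.3 and 12.6 CPM. Neither knockout overlapped Ctrl, and R4KO_2 lay below R4KO_1 without overlap. Over Ctrl the log2 fold change was -1.28 ± 0.09 (SE) in R4KO_1, 2.43-fold lower, and -2.09 ± 0.10 in R4KO_2, 4.26-fold lower. These comparisons share the Ctrl libraries. Between the knockouts, the log2 fold change of R4KO_2 over R4KO_1 was -0.81 ± 0.11.

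In iR4 cells SLC19A1 had 11.2, 10.2 and 9.5 CPM, against 75.8, 70.3 and 66.3 CPM in Vehicle. Over Vehicle the log2 fold change was -2.77 ± 0.08, 6.82-fold lower, which placed SLC19A1 12th from the lowest of the 14000 genes tested. The gene was chosen with results of these libraries known, so its rank here and below is a description only. Cells of the H151_iR4 group had 85.8, 75.2 and 71.2 CPM, all above the 3 iR4 libraries and overlapping Vehicle. Over iR4 the log2 fold change was 2.90 ± 0.08, the 7th highest of 14000 genes, and over Vehicle it was 0.13 ± 0.06. In KO_2 cells SLC19A1 had 67.3, 58.8 and 61.8 CPM with H151 and 53.2, 51.0 and 57.5 CPM with BX_795. Both drug groups lay above both knockouts, H151 also lay above Ctrl, and BX_795 overlapped Ctrl. Over R4KO_2 the log2 fold change was 2.41 ± 0.10 with H151 and 2.19 ± 0.10 with BX_795. Against R4KO_1 it was 1.6 ± 0.09 with H151 and 1.39 ± 0.09 with BX_795.

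**Figure D1:**
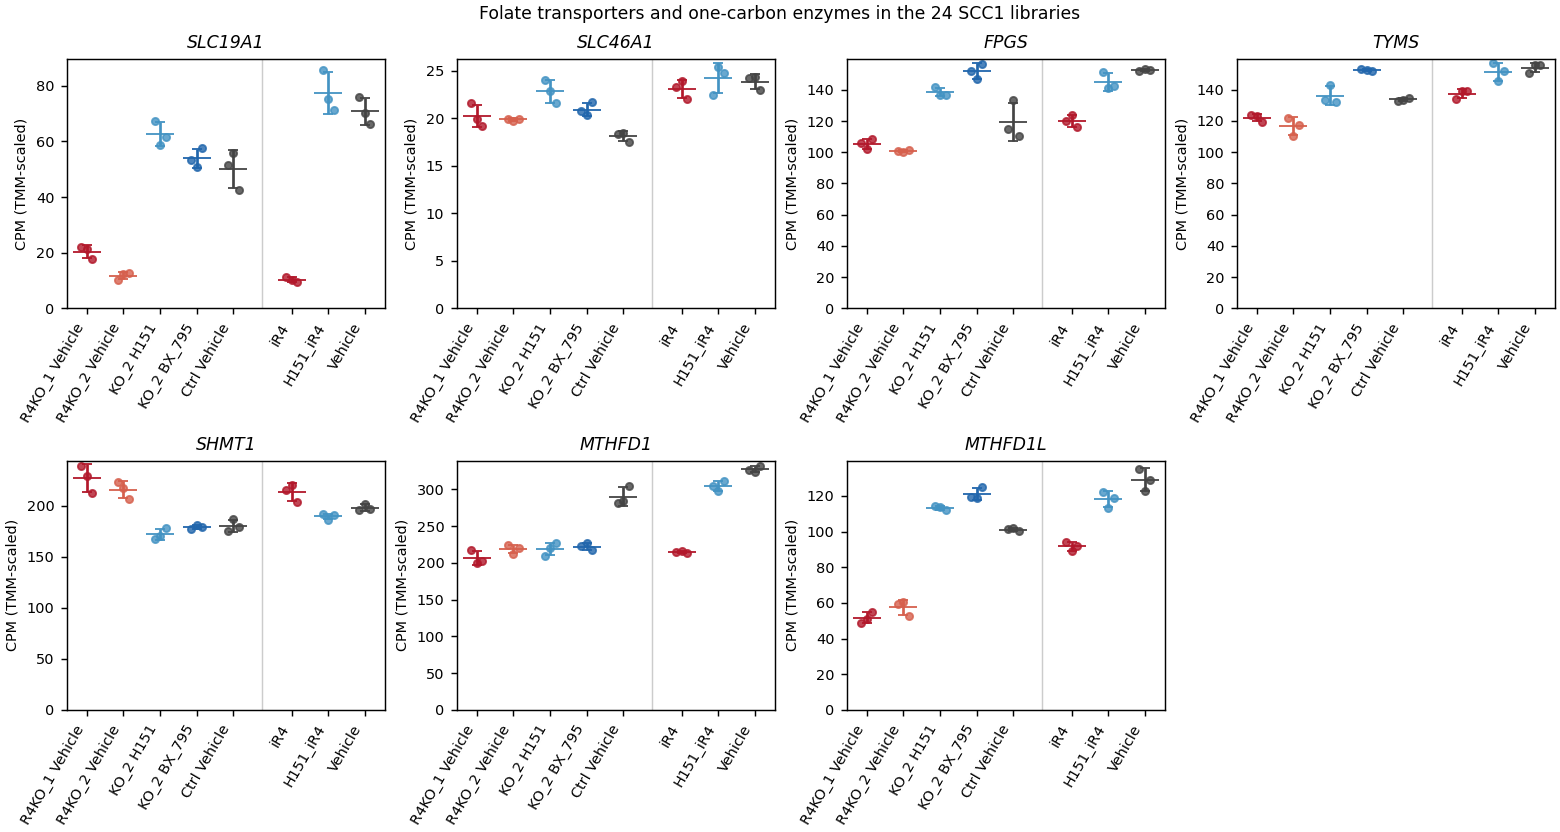
Expression of the 7 genes in the 24 SCC1 libraries (y axis, TMM-scaled CPM from 0), with 1 point per library and bars for the mean ± SD of 3. SLC19A1 is low in R4KO_1, R4KO_2 and iR4 only (group means 20.4, 11.7 and 10.3 CPM, against 49.97 to 77.4 CPM in the other 5 groups), while MTHFD1 stays low in KO_2 with either drug.

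SLC19A1 shares 1401 exon bases with COL18A1, a collagen gene on the other strand, and no source used here gives the strand setting of the counting. Reads of these bases cannot be told apart between the genes if strand was not used. COL18A1 was at 35.3 to 57.7 CPM in SCC1, and its log2 fold change over Ctrl was 0.04 ± 0.05 in R4KO_1 and -0.08 ± 0.05 in R4KO_2. In the iR4 experiment it moved the same way as SLC19A1, with -0.54 ± 0.05 in iR4 over Vehicle (edgeR quasi-likelihood test, adjusted p = 3.03e-10) and 0.55 ± 0.05 in H151_iR4 over iR4 (adjusted p = 3.44e-10). Its part in the SLC19A1 values was not tested.

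SLC46A1 (ENSG00000076351, chr17:28394756-28407197, minus strand), the other folate carrier, varied little. It had 21.5, 19.9 and 19.2 CPM in R4KO_1 and 19.9, 19.7 and 20.0 CPM in R4KO_2, against 18.3, 18.5 and 17.5 CPM in Ctrl. Both knockouts lay above Ctrl, by a log2 fold change of 0.17 ± 0.07 in R4KO_1 and 0.14 ± 0.07 in R4KO_2. In the iR4 experiment the 3 groups overlapped, with 23.1 ± 0.95 CPM in iR4, 24.2 ± 1.6 in H151_iR4 and 23.8 ± 0.78 in Vehicle (SD, n = 3 each). With H151, KO_2 cells had 22.8 ± 1.20 CPM, and with BX_795 20.9 ± 0.71 CPM. Over R4KO_2 the log2 fold change was 0.19 ± 0.06 with H151 and 0.06 ± 0.06 with BX_795, and over R4KO_1 0.15 ± 0.06 with H151 and 0.03 ± 0.06 with BX_795. SARM1, on the other strand, shares 4421 exon bases with SLC46A1 and was at 1.18 to 2.48 CPM.

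FPGS (ENSG00000136877, chr9:127794597-127814327, plus strand), which retains folate, was somewhat lower in the knockouts and higher with the drugs. R4KO_1 had 105.9, 101.8 and 108.5 CPM and R4KO_2 had 100.9, 100.3 and 101.5 CPM, against 114.6, 133.3 and 110.4 CPM in Ctrl. The knockouts lay just below the lowest Ctrl library, and 1 Ctrl library stood well above the other 2. The log2 fold change over Ctrl was -0.17 ± 0.05 in R4KO_1 and -0.24 ± 0.05 in R4KO_2. In iR4 it was -0.35 ± 0.04, from 119.9, 123.7 and 116.4 CPM in iR4, against 152.3, 153.5 and 152.8 CPM in Vehicle. KO_2 cells had 138.5 ± 2.75 CPM with H151 and 152.0 ± 4.84 CPM with BX_795, both above every R4KO_2, R4KO_1 and Ctrl library. Over R4KO_2 these were log2 fold changes of 0.44 ± 0.05 with H151 and 0.58 ± 0.05 with BX_795, and over R4KO_1 0.37 ± 0.05 with H151 and 0.51 ± 0.05 with BX_795. H151_iR4 libraries, at 151.7, 141.0 and 142.2 CPM, lay above iR4 by 0.27 ± 0.04 and below all 3 Vehicle libraries.

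TYMS (ENSG00000176890, chr18:657604-673578, plus strand), the target of fluorouracil, followed FPGS in direction with smaller differences. It had 123.9, 122.9 and 119.5 CPM in R4KO_1 and 122.0, 110.7 and 117.5 CPM in R4KO_2, against 133.0, 133.7 and 134.8 CPM in Ctrl. Neither knockout overlapped Ctrl, and the log2 fold change was -0.12 ± 0.04 in R4KO_1 and -0.19 ± 0.04 in R4KO_2. In iR4 it was -0.16 ± 0.04, from 137.6 ± 2.74 CPM in iR4 and 154.2 ± 2.81 CPM in Vehicle. With BX_795 all 3 KO_2 libraries were between 151.9 and 153.1 CPM, above the H151 libraries at 132.3 to 143.1 CPM. TYMS shares 967 exon bases with ENOSF1 on the other strand, which was at 52.0 to 80.1 CPM. The ENOSF1 log2 fold change over R4KO_2 was -0.45 ± 0.05 with H151 and -0.37 ± 0.05 with BX_795, where that of TYMS was 0.21 ± 0.04 with H151 and 0.37 ± 0.04 with BX_795. Over R4KO_1 TYMS was higher by 0.14 ± 0.04 with H151 and 0.30 ± 0.04 with BX_795. In H151_iR4 TYMS had 151.6 ± 5.72 CPM, above iR4 by 0.13 ± 0.04 and overlapping Vehicle.

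SHMT1 (ENSG00000176974, chr17:18327860-18363563, minus strand) went the other way from SLC19A1. It had 239.0, 228.7 and 211.9 CPM in R4KO_1 and 223.1, 217.1 and 206.7 CPM in R4KO_2, against 175.2, 186.4 and 179.1 CPM in Ctrl. All 6 knockout libraries lay above the 3 Ctrl libraries, by a log2 fold change of 0.34 ± 0.04 in R4KO_1 and 0.26 ± 0.04 in R4KO_2. The iR4 libraries, at 215.6, 220.1 and 203.1 CPM, lay above Vehicle at 195.3, 201.8 and 196.8 CPM by 0.11 ± 0.03. KO_2 cells with H151 had 171.7 ± 5.79 CPM and those with BX_795 had 178.8 ± 1.62 CPM, both below every knockout library with vehicle. Over R4KO_2 the log2 fold change was -0.34 ± 0.04 with H151 and -0.28 ± 0.04 with BX_795, and over R4KO_1 -0.42 ± 0.04 with H151 and -0.36 ± 0.04 with BX_795. H151_iR4 libraries had 189.4 ± 2.79 CPM, below iR4 by a log2 fold change of -0.17 ± 0.03. SMCR8, on the other strand, shares 196 exon bases with SHMT1 and was at 109 to 181 CPM. SMCR8 rose too, by a log2 fold change of 0.32 in R4KO_1, 0.31 in R4KO_2 and 0.32 in iR4 (adjusted p = 4.43e-05, 6.09e-05 and 9.14e-08, edgeR), and its part in the SHMT1 values was not tested.

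MTHFD1 (ENSG00000100714, chr14:64388031-64463457, plus strand) was lower in the knockouts, and the KO_2 libraries with either drug were as low. It had 217.2, 199.7 and 202.6 CPM in R4KO_1 and 223.6, 212.1 and 220.2 CPM in R4KO_2, against 281.4, 283.4 and 304.7 CPM in Ctrl. With H151 it had 209.7, 219.8 and 226.6 CPM, and with BX_795 222.3, 227.1 and 216.9 CPM. The drug groups overlapped R4KO_2 and lay below every Ctrl library. The log2 fold change over Ctrl was -0.48 ± 0.04 in R4KO_1, -0.40 ± 0.04 in R4KO_2, -0.42 ± 0.04 with H151 and -0.39 ± 0.04 with BX_795, 4 values that share the Ctrl libraries.

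The iR4 experiment gave another picture for MTHFD1. iR4 libraries had 215.2, 216.1 and 213.5 CPM and H151_iR4 libraries had 304.1, 297.2 and 311.6 CPM, against 326.4, 323.5 and 332.1 CPM in Vehicle. The 3 groups did not overlap, and H151_iR4 lay between iR4 and Vehicle. The log2 fold change was -0.60 ± 0.03 for iR4 over Vehicle, 0.50 ± 0.03 for H151_iR4 over iR4 and -0.11 ± 0.03 for H151_iR4 over Vehicle. For H-151 in KO_2 cells over R4KO_2 it was -0.01 ± 0.04, and over R4KO_1 0.06 ± 0.04. With BX_795 it was 0.01 ± 0.04 over R4KO_2 and 0.09 ± 0.04 over R4KO_1. The difference between these H-151 values was not tested, since MTHFD1 was chosen on these data. On the other strand, MTHFD1 shares 756 exon bases with the antisense gene AL122035.2 and 178 with ZBTB25, which was at 24.8 to 36.1 CPM. The ZBTB25 log2 fold change was 0.23 ± 0.07 in R4KO_1 and 0.36 ± 0.07 in R4KO_2 over Ctrl, and 0.24 ± 0.06 in iR4 over Vehicle. The part of these overlaps in the MTHFD1 values was not tested.

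MTHFD1L (ENSG00000120254, chr6:150865549-151101887, plus strand), the mitochondrial formate-releasing enzyme, had the second widest range. It had 49.0, 50.8 and 55.1 CPM in R4KO_1 and 59.2, 60.8 and 52.7 CPM in R4KO_2, against 101.2, 102.2 and 100.1 CPM in Ctrl. The knockouts overlapped each other and lay well below Ctrl, with a log2 fold change of -0.96 ± 0.05 in R4KO_1 and -0.81 ± 0.05 in R4KO_2. KO_2 cells had 114.3, 114.0 and 112.2 CPM with H151 and 119.7, 118.6 and 124.8 CPM with BX_795, above every Ctrl library. Over R4KO_2 these were log2 fold changes of 0.97 ± 0.05 with H151 and 1.06 ± 0.05 with BX_795, and over R4KO_1 1.12 ± 0.05 with H151 and 1.21 ± 0.05 with BX_795. In iR4 MTHFD1L had 94.1, 89.3 and 91.8 CPM, against 135.4, 122.6 and 129.2 CPM in Vehicle, a log2 fold change of -0.49 ± 0.04. H151_iR4 libraries had 118.2 ± 4.41 CPM, above iR4 by 0.36 ± 0.04 and below Vehicle by a log2 fold change of -0.13 ± 0.04.

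**Figure D2:**
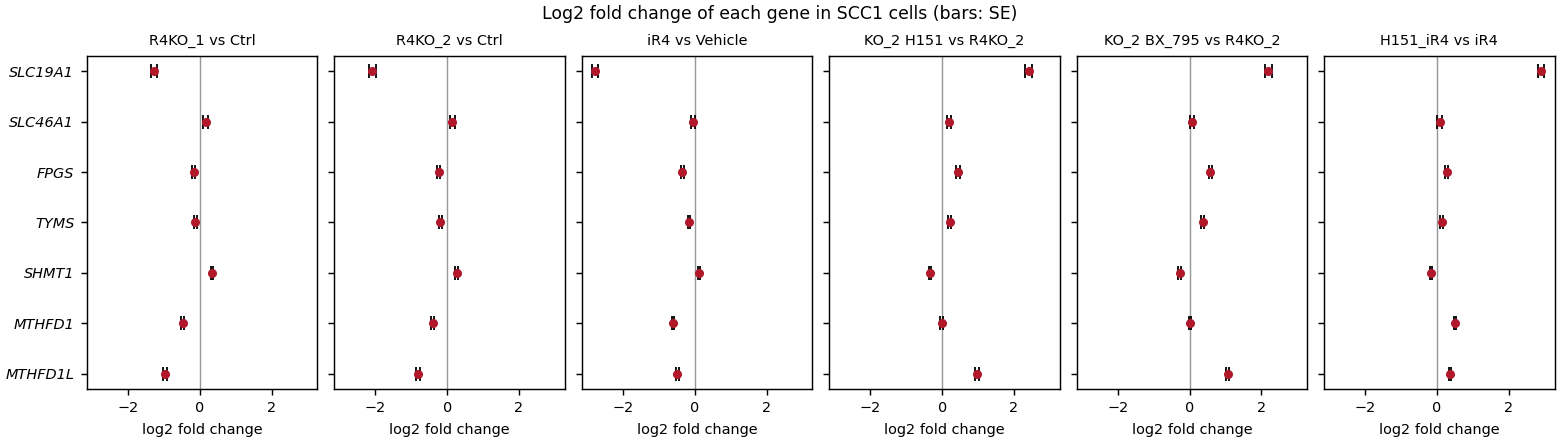
Log2 fold change of the 7 genes (x axis) in 6 SCC1 comparisons, as points with the SE of the fit as bars. SLC19A1 has the widest spread, from -2.77 in iR4 over Vehicle to 2.90 in H151_iR4 over iR4, and MTHFD1 lies at -0.01 with H151 and 0.01 with BX_795 in KO_2 cells and at 0.50 for H151_iR4.

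Counted over the set, 7 genes were called in R4KO_1 over Ctrl at an adjusted p under 0.05 (edgeR, all genes), where 64.5% of all 14348 genes were called. Of these 7, 5 were lower and 2 higher, beside 31.4% lower and 33.0% higher over all genes. The libraries did not overlap for the same counts, 5 lower and 2 higher, beside 31.9% and 32.4%. In R4KO_2 over Ctrl 6 were called, beside 66.2%, with 5 lower and 1 higher, beside 32.2% and 34.0%, and 5 lower and 2 higher without overlap, beside 33.5% and 35.6%. In iR4 over Vehicle 6 of 7 were called, beside 71.9% of 14000 genes, with 5 lower and 1 higher, beside 34.8% and 37.1%, and the same counts without overlap, beside 36.3% and 37.5%.

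With H151 over R4KO_2, 6 were called, beside 72.7%, with 5 higher and 1 lower, beside 35.7% and 37.0%, and the same counts without overlap, beside 38.6% and 38.0%. With BX_795 over R4KO_2, 5 were called, beside 73.6%, with 4 higher and 1 lower, beside 36.4% and 37.1%, and 5 higher and 1 lower without overlap, beside 38.9% and 38.2%. H151_iR4 over iR4 gave 6 called, beside 71.4%, with 5 higher and 1 lower, beside 35.1% and 36.3%, and the same counts without overlap, beside 36.1% and 37.0%. H151_iR4 over Vehicle gave 2 called, both lower, beside 18.3% called and 9.58% lower, and 4 lower without overlap, beside 17.3%. Since the genes were chosen on these libraries, nothing is read from these counts.

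Between the other pairs of groups, R4KO_2 over R4KO_1 gave 2 called, 1 higher and 1 lower, beside 31.6%, 15.1% and 16.6%, and 2 lower without overlap, beside 20.7%. BX_795 over H151 gave 1 called, TYMS, which was higher, and 0 lower, beside 9.67% called, 5.67% higher and 3.99% lower, and 3 higher and 1 lower without overlap, beside 16.9% and 16.6%. Without replicate 1 or 3 of KO_2 H151 that count of called members was 0. Leaving out each replicate in turn gave 814 to 1015 called genes over all genes. Over Ctrl, KO_2 with H151 had 5 called, beside 53.0%, with 4 higher and 1 lower, beside 26.0% and 26.9%, and the same counts without overlap, beside 30.7% and 28.6%. Over Ctrl, KO_2 with BX_795 had 5 called, beside 55.7%, with 4 higher and 1 lower, beside 27.7% and 28.0%, and the same counts without overlap, beside 31.5% and 30.1%. The 1 lower gene was MTHFD1 for both drugs. The doses of the drugs are not given, so their values stand side by side without a comparison of strength.

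Per kilobase of exon (union of GENCODE v29 exons), TYMS had the highest mean level of the set and the transporters the lowest. The divisor counts every annotated exon base, 2470 for TYMS and 9998 for SLC19A1, whether or not SCC1 cells use it. The order between genes therefore depends on the annotation too. Averaged over the 8 SCC1 groups, the level was 55.9 CPM per kilobase for TYMS, 32.9 for FPGS, 27.0 for SHMT1, 26.7 for MTHFD1, 19.5 for MTHFD1L, 4.47 for SLC19A1 and 2.76 for SLC46A1. That order did not hold in every group. SLC19A1 was below SLC46A1 in R4KO_1 (2.04 and 2.58 CPM per kilobase), R4KO_2 (1.17 and 2.53) and iR4 (1.03 and 2.94), and FPGS was below SHMT1 in R4KO_1 (26.8 and 31.1) and R4KO_2 (25.7 and 29.6). Before division by length, SLC19A1 was not below SLC46A1 in R4KO_1 (20.39 and 20.22 CPM). The highest group mean exceeded the lowest by 7.49-fold for SLC19A1, 2.50-fold for MTHFD1L, 1.58-fold for MTHFD1, 1.52-fold for FPGS, 1.34-fold for SLC46A1 and 1.32-fold for SHMT1 and TYMS. Both groups came from the same experiment for SLC19A1 and SHMT1 only. For the other genes the ratio spans both experiments, whose vehicle controls differed, as for MTHFD1L at 101.2 CPM in Ctrl and 129.1 CPM in Vehicle. Experiment and group cannot be told apart in those ratios.

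The order of the 8 groups, which come from both experiments, differed between genes. For SLC19A1 the group means ran from H151_iR4 down through Vehicle, KO_2 H151, KO_2 BX_795, Ctrl, R4KO_1 and R4KO_2 to iR4. Libraries of neighbouring groups overlapped in 4 of those 7 steps, and were apart between KO_2 H151 and KO_2 BX_795, between Ctrl and R4KO_1, and between R4KO_1 and R4KO_2. For SHMT1 the 3 highest groups were R4KO_1, R4KO_2 and iR4, and these overlapped in turn. For SLC46A1 6 of 7 steps overlapped, with Ctrl apart at the low end.

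Across the 24 libraries, log2 CPM of FPGS and TYMS had a Pearson r of 0.91, FPGS and MTHFD1L also 0.91, and SLC19A1 and FPGS 0.80. SLC19A1 and SHMT1 had r = -0.73, and the 2 transporters had r = 0.26. These correlations describe libraries that share experiments, groups, treatments and depth, and carry no test. Among 10959 other genes with a mean log2 CPM of at least 2, the patterns most like SLC19A1 were those of MAPKAP1 (r = 0.987), CAPN15 (0.985) and CLPTM1L (0.984). For MTHFD1L they were SLC39A14 (0.985), NPM3 (0.984) and EBNA1BP2 (0.983), and for MTHFD1 USP15 (0.961), DEK (0.953) and HNRNPM (0.953). For FPGS they were MRPS34 (0.978), ENTREP3 (0.977) and PTGES2 (0.974), and for TYMS GCSH (0.942), the lipoyl carrier of glycine cleavage, PRPF4 (0.936) and RPS6KB2 (0.934). SHMT1 came closest to LINC00294 (0.924), C14orf132 (0.906) and IL17RB (0.905), and SLC46A1 to SCAMP2 (0.912), SAMD11 (0.907) and ID2 (0.901).

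The other one-carbon genes were a list of 44, of which 37 passed the filter in each SCC1 experiment. This list and those below were drawn up with earlier results of these data known, and named genes were mostly picked for a low p. Their p-values describe these libraries and are not independent support. FOLR2, FOLR3, ALDH1L1, GLDC, BHMT and BHMT2 reached at most 0.667 CPM and were tested in neither. In R4KO_1, 12 of 37 rose and 19 fell relative to Ctrl, and in R4KO_2 11 rose and 19 fell (edgeR, adjusted p under 0.05), with shares of all genes as given above. In iR4, 15 rose and 17 fell relative to Vehicle, beside 37.1% of all genes higher and 34.8% lower. The median log2 fold change of the list was -0.13 in R4KO_1, -0.16 in R4KO_2 and -0.02 in iR4, beside 0.02 over all genes in each.

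Purine ring synthesis takes a pair of folate-borne carbons. All 6 of its genes, PPAT, GART, PFAS, PAICS, ADSL and ATIC, fell in R4KO_1, in R4KO_2 and in iR4. List medians were -0.51, -0.51 and -0.54, and over all genes 31.4%, 32.2% and 34.8% were lower. PFAS, the formylglycinamidine synthase of the pathway, was at 76.6 ± 1.24 CPM in R4KO_1, 65.3 ± 2.56 in R4KO_2 and 126.5 ± 11.8 in Ctrl, with adjusted p = 7.75e-11 for R4KO_1 and 7.32e-13 for R4KO_2 (edgeR). It was at 95.2 ± 3.50 CPM in iR4 and 167.2 ± 5.57 in Vehicle, a log2 fold change of -0.81 (adjusted p = 2.26e-15, edgeR). ADSL, adenylosuccinate lyase, changed by -0.88 in R4KO_2 (adjusted p = 8.46e-13) and by -0.89 in iR4 (adjusted p = 7.69e-15). PAICS fell by 0.51 on the log2 scale in R4KO_1 (adjusted p = 4.37e-12, edgeR).

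The same 6 purine genes rose over R4KO_2 with H151 and with BX_795, and in H151_iR4 over iR4, with list medians of 0.37, 0.42 and 0.45. Over all genes 35.7%, 36.4% and 35.1% were higher. Against R4KO_1 all 6 also rose with either drug, beside 33.0% of all genes with H151 and 33.8% with BX_795. Relative to Ctrl, 3 of 6 were lower with H151 and 3 of 6 with BX_795, beside 26.9% and 28.0% of all genes. With H151, 1 was higher, beside 26.0%.

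Of 9 methionine cycle and transsulfuration genes, 3 rose and 4 fell in each knockout. Over all genes 33.0% were higher and 31.4% lower in R4KO_1, and 34.0% and 32.2% in R4KO_2. Of 8 tested in iR4, 3 rose and 3 fell, beside 37.1% and 34.8% of all genes. MTRR, which keeps methionine synthase active, fell by 0.80 on the log2 scale in R4KO_1 (adjusted p = 4.41e-13) and by 0.96 in R4KO_2 (adjusted p = 1.98e-14, edgeR). MAT2A, which makes S-adenosylmethionine, fell by 0.61 in R4KO_1, by 0.69 in R4KO_2 and by 0.78 in iR4 (adjusted p = 1.34e-11, 1.53e-12 and 1.46e-15, edgeR). AHCY, which clears S-adenosylhomocysteine, was at 250.3 ± 1.82 CPM in R4KO_2 and 398.8 ± 13.7 CPM in Ctrl, a fall of 0.67 (adjusted p = 3.63e-13, edgeR). With H151 it was at 463.0 ± 14.8 CPM and with BX_795 at 450.4 ± 1.86 CPM, so it rose over R4KO_2 by 0.87 with H151 and 0.84 with BX_795 (adjusted p = 1.69e-15 and 3.64e-15, edgeR). AHCY was at 329.9 ± 8.07 CPM in R4KO_1, so over R4KO_1 it rose by less, 0.47 with H151 and 0.43 with BX_795 (adjusted p = 6.61e-11 and 2.69e-10, edgeR). MTRR rose over R4KO_2 by 1.05 with H151 and 1.02 with BX_795 (adjusted p = 1.40e-15 and 2.29e-15, edgeR), and over R4KO_1 by 0.88 with H151 and 0.85 with BX_795 (adjusted p = 3.10e-14 and 6.37e-14, edgeR). CTH, which makes cysteine from cystathionine, went up in iR4, to 30.3 ± 2.02 CPM against 8.69 ± 0.01 in Vehicle, and was at 11.8 ± 0.32 CPM in H151_iR4 (adjusted p = 4.97e-17 for iR4 over Vehicle and 5.47e-15 for H151_iR4 over iR4, edgeR).

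The folate receptor gene FOLR1 was at 15.4 ± 1.86 CPM in R4KO_1 and 4.07 ± 0.25 CPM in Ctrl (log2 fold change 1.93, adjusted p = 1.38e-11, edgeR), and R4KO_2 lay 1.0 below R4KO_1 on the log2 scale at 7.73 ± 0.88 CPM (adjusted p = 5.32e-07, edgeR).

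The mitochondrial partners of MTHFD1L went in mixed directions. Of 6 tested, 1 rose and 3 fell in R4KO_1, beside 33.0% of all genes higher and 31.4% lower. For R4KO_2 the counts were 0 and 3, beside 34.0% and 32.2%. Of 7 tested in iR4, 2 rose and 3 fell, beside 37.1% and 34.8%. MTHFD2, which makes the formyl-tetrahydrofolate that MTHFD1L uses, was at 113.8 ± 6.68 CPM in R4KO_1, 110.4 ± 7.81 in R4KO_2 and 163.1 ± 9.90 in Ctrl (adjusted p = 1.62e-08 for R4KO_1 and 3.29e-09 for R4KO_2, edgeR). With H151 it was at 213.5 ± 3.0 CPM and with BX_795 at 229.2 ± 3.83 CPM, above Ctrl by 0.38 and 0.48 on the log2 scale (adjusted p = 1.64e-06 and 4.33e-08, edgeR). SHMT2, which loads mitochondrial folate from serine, fell by 0.13 in each knockout (adjusted p = 0.0335 in R4KO_1 and 0.0404 in R4KO_2, edgeR). In iR4, however, SHMT2 rose by 0.22 relative to Vehicle (adjusted p = 1.34e-06) while MTHFD2 fell by 0.25 (adjusted p = 6.38e-07, edgeR).

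Of 3 serine synthesis genes, 2 rose and 0 fell in iR4, beside 37.1% of all genes higher and 34.8% lower, and PSPH was at 77.5 ± 4.03 CPM in iR4 and 77.8 ± 2.89 CPM in Vehicle. PSAT1, the phosphoserine aminotransferase, was at 217.8 ± 6.21 CPM in iR4 and 107.2 ± 1.71 CPM in Vehicle, a log2 fold change of 1.03 (adjusted p = 7.17e-17, edgeR), and PHGDH, the first enzyme of the branch, rose by 0.75 (adjusted p = 5.71e-15, edgeR). In the knockouts, 1 of the 3 serine synthesis genes, PHGDH, rose (by 0.22 in R4KO_1 and 0.19 in R4KO_2, adjusted p = 5.12e-05 and 0.000219, edgeR) and 1 fell. PSAT1 was at 111.6 ± 18.4 CPM in R4KO_1, 115.6 ± 8.16 in R4KO_2 and 112.0 ± 4.65 in Ctrl. Relative to Ctrl, PSAT1 rose by 0.69 with H151 and by 0.86 with BX_795 (adjusted p = 7.34e-08 and 2.15e-09, edgeR). Between the drugs, PHGDH was 0.21 higher on the log2 scale with BX_795 than with H151 (adjusted p = 0.000902), and DLD, shared by glycine cleavage and other dehydrogenases, 0.13 higher (adjusted p = 0.0444, edgeR), the 2 genes called of the 37.

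**Figure D3:**
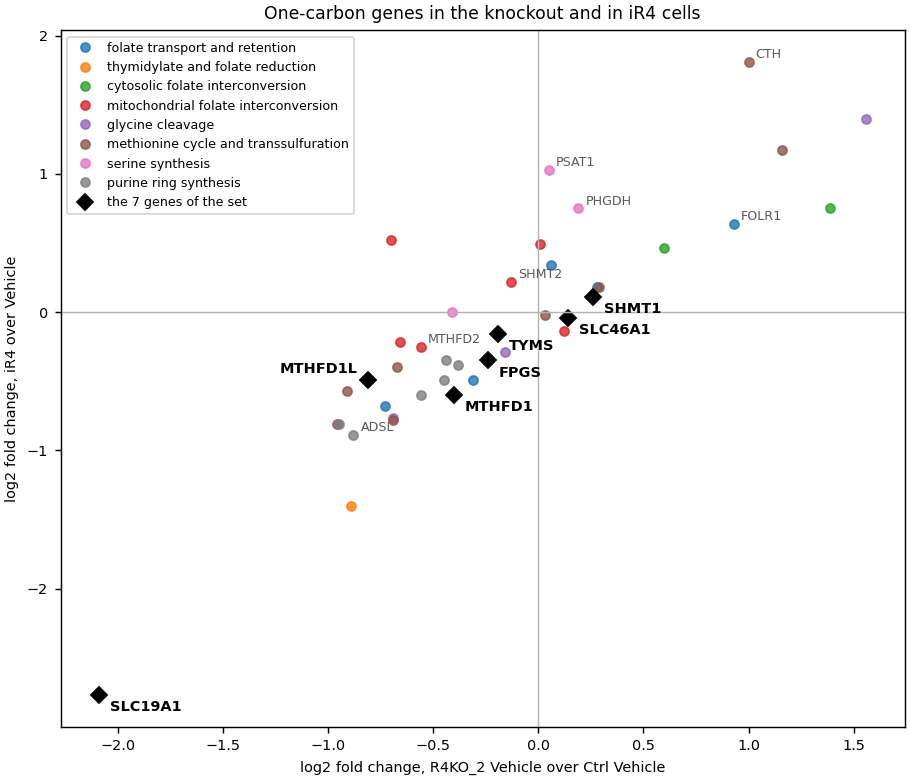
Log2 fold change of R4KO_2 over Ctrl (x axis) and of iR4 over Vehicle (y axis), comparisons that share no library, for the 7 genes (black diamonds) and 34 of the 36 other one-carbon genes tested in both experiments (circles, coloured by list). SLC19A1 lies alone at the lower left (-2.09 and -2.77), the purine genes lie below 0 on both axes, and PSAT1 lies near 0 for R4KO_2 and at 1.03 for iR4.

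H151_iR4 differed less from Vehicle. Of the 37 other one-carbon genes, 6 were higher and 4 lower than in Vehicle, beside 8.71% and 9.58% of all genes. PSAT1 was 0.44 and PHGDH 0.36 higher on the log2 scale (adjusted p = 4.10e-08 and 1.31e-07, edgeR). ABCC1, an exporter that also carries folates, was at 210.8 ± 5.45 CPM in H151_iR4, 130.9 ± 2.96 in iR4 and 183.7 ± 3.20 in Vehicle (adjusted p = 4.18e-15 over iR4 and 0.000125 over Vehicle, edgeR).

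The rule for the genes names the SCC1 files, not the mouse tumors, but the genes were chosen with earlier results of these data known. Slc19a1 (ENSMUSG00000001436) had 39.88 and 23.98 CPM in R4KO tumors, against 11 and 16.68 CPM in Wt tumors. Both R4KO tumors lay above both Wt tumors, the reverse of the SCC1 knockouts. At a log2 fold change of 1.21 ± 0.44 (adjusted p = 0.999, edgeR) the difference did not pass the test. Fpgs had 33.6 and 35.2 CPM in R4KO tumors and 23.9 and 29.7 CPM in Wt tumors, a log2 fold change of 0.36 ± 0.32 (adjusted p = 0.999, edgeR). These were the 2 of 7 orthologs without overlap in that direction, beside 16.4% of the 14523 genes tested, and 0 of 7 lay lower without overlap, beside 14.2%.

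The other 5 orthologs overlapped between the genotypes. Mthfd1 had 107.9 and 51.2 CPM in R4KO tumors, against 73.2 and 61.2 CPM in Wt tumors, and Mthfd1l 71.8 and 41.8 CPM in R4KO, against 31.9 and 54.6 CPM in Wt. Shmt1 had 63.0 and 45.9 CPM in R4KO, against 47.6 and 35.4 CPM in Wt. Tyms had 29.8 and 23.9 CPM in R4KO and 25.3 and 32.8 CPM in Wt, and Slc46a1 6.19 and 7.57 CPM in R4KO and 8.41 and 7.08 CPM in Wt. With edgeR and its filter, 0 of the 7 orthologs, 0 of 35 other one-carbon genes and 0 of all genes (0.0%) were called. At an unadjusted p under 0.05 edgeR gave 655 genes, and without the filter it called 6 after adjustment. DESeq2 called 145 genes, among them 1 of the other one-carbon genes.

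**Figure D4:**
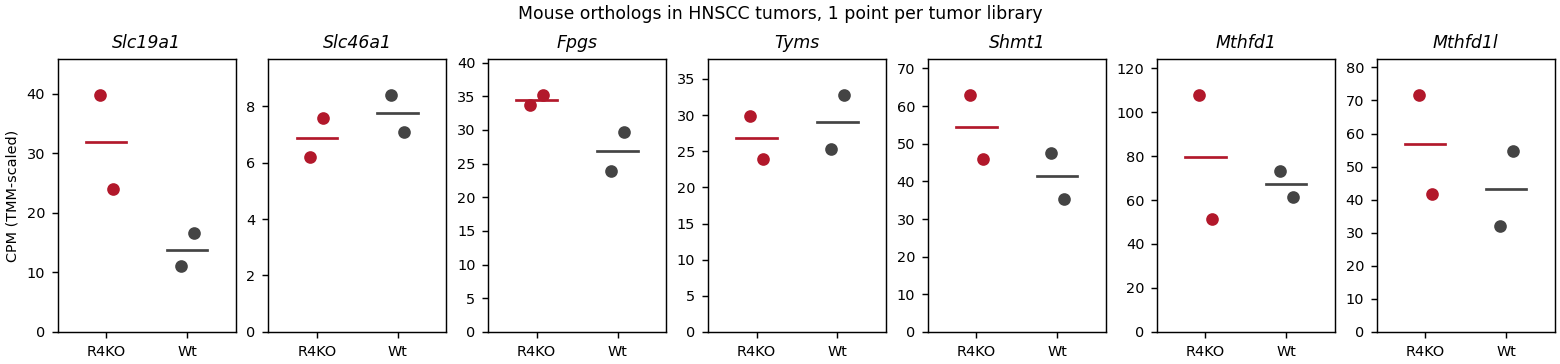
Expression of the mouse orthologs (y axis, TMM-scaled CPM from 0) in 2 R4KO and 2 Wt tumors, with 1 point per tumor library and a line at each mean. Slc19a1 and Fpgs are higher in both R4KO tumors, and the other 5 overlap between genotypes.

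Some markers of tumor makeup lay apart between the genotypes of these tumors, and others overlapped. The leukocyte marker Ptprc was at 16.8 and 28.4 CPM in the R4KO tumors and at 3.10 and 7.88 CPM in the Wt tumors. Summed squamous markers were at 30400 to 46100 CPM in R4KO and 52000 to 70400 CPM in Wt, and summed skeletal muscle markers at 26.8 to 1980 CPM in R4KO and 4.74 to 232 CPM in Wt. Summed T cell markers were at 3.95 to 4.28 CPM in R4KO and 0.113 to 0.728 CPM in Wt, macrophage markers at 36.1 to 70.7 CPM in R4KO and 21.3 to 35.6 CPM in Wt, endothelial markers at 115 to 122 CPM in R4KO and 137 to 162 CPM in Wt, and fibroblast markers at 436 to 973 CPM in R4KO and 692 to 1800 CPM in Wt. Their part in the ortholog values was not tested, and in bulk tumors fewer cells of a type and less RNA per cell cannot be told apart. Rexo4 was at 14.9 and 17.4 CPM in R4KO tumors, against 30.3 and 31.1 CPM in Wt tumors.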

How the data were processed

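Polyadenylated RNA was sequenced, per the labels' protocols, from 24 SCC1 and 4 mouse tumor libraries, although the molecule label reads genomic DNA. Per the submitters' processing notes the authors aligned with HISAT2 2.2.1 to hg38 or mm10 and used featureCounts 2.0.1 and Trim Galore 0.6.4. No source used here gives the annotation or strand setting. The deposited values are raw counts per gene ID, used once per ID. Counts were tested with edgeR 4.0.16 in R 4.3.3 (quasi-likelihood F test after TMM scaling, genes kept by filterByExpr at a minimum of 10 counts, Benjamini-Hochberg over all genes, threshold 0.05), with the 15 libraries of the knockout experiment, the 9 of the iR4 experiment and the mouse libraries fitted apart, in 12 comparisons. CPM were scaled over all 24 SCC1 libraries. The script was tested on simulated data. Promoter sequences are RefSeq, GRCh38.p14; 7 of 7 symbols matched.

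The members and gene lists were chosen with earlier results of these data known. Named genes are every member, REXO4, and of the other one-carbon genes SHMT2, MTHFD2 and, per comparison, up to 6 called genes with the lowest p, some of which are not reported here; genes of like pattern are the 3 with the highest r. COL18A1, ENOSF1, SARM1, SMCR8, ZBTB25 and AL122035.2 were named because their exons overlap a member's. Other genes were named after their values were seen. Alternatives were DESeq2 1.42.0, RLE or upper-quartile scaling, no filter, a filter of 1 CPM, the drug groups against R4KO_1 (added after seeing the data), other sets of libraries, the replicate number as a block and leaving out each replicate.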

Additional observations from a re-analysis of the deposited data

Results flagged for a closer look

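Slc19a1, the mouse ortholog of SLC19A1, had a log2 fold change of 1.21 in R4KO over Wt mouse tumors, and SLC19A1 had -1.28 in R4KO_1 and -2.09 in R4KO_2 over Ctrl in SCC1, with no overlap between groups in any of these, so the directions are opposite. FPGS was opposite in the same way, at 0.36 in the tumors, -0.17 in R4KO_1 and -0.24 in R4KO_2. Neither tumor difference passed the test (1.21 ± 0.44 for Slc19a1 and 0.36 ± 0.32 for Fpgs, SE, both with adjusted p = 0.999 in edgeR). Some markers of other cell types lay apart between the tumor genotypes, and others overlapped. The difference between tumors and cells was not tested.

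With H-151, 3 other one-carbon genes went in opposite directions in KO_2 and iR4 cells, without overlap between groups. The log2 fold change over R4KO_2 in KO_2 cells and that of H151_iR4 over iR4 were 0.64 and -0.59 for PSAT1, 0.42 and -0.25 for SHMT2, and 0.10 and -0.38 for PHGDH. Over R4KO_1 the H151 values were 0.68 for PSAT1, 0.43 for SHMT2 and 0.08 for PHGDH, the last with adjusted p = 0.0841 (edgeR). CTH also depended on which knockout it was set against, at -0.47 over R4KO_2 and 0.33 over R4KO_1 with H151 (adjusted p = 0.000118 and 0.00654, edgeR), and at -1.37 in H151_iR4 over iR4. Which genes were opposite therefore changed with the knockout used. The difference was not tested.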

How the results depend on the processing

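No called value of a member changed sign under the alternatives run. Without counting left-out replicates, 733 member values moved by less than the spread between replicates and 23 by more, and with each replicate left out in turn, 487 and 3. Mthfd1, not called in the tumors, was at -0.38 on the log2 scale without R4KO replicate 1, against 0.24 with all 4 tumors. Without the filter on low counts, BX_795 over H151 gave 3 called members and 5 other one-carbon genes, and the tumors gave 6 called genes; DESeq2 gave 145 called genes and 1 one-carbon gene in the tumors. With only the 2 groups compared in the fit, BX_795 over H151 gave 2653 called genes, 3 members and 8 other one-carbon genes, and R4KO_2 over R4KO_1 gave 1 member. With all 24 SCC1 libraries in 1 fit, H151_iR4 over Vehicle gave 0 called members. The causes were not tested. Totals over all genes are not given for BX_795 over H151 without the filter, or for the 1-fit run. Nor are they given for R4KO_2 over R4KO_1 with 2 groups, so nothing is read from those member counts. Leaving out each replicate gave 814 to 1015 called genes, 0 to 1 members and 1 to 2 other one-carbon genes for BX_795 over H151. For R4KO_2 over R4KO_1 it gave 3692 to 4663 called genes, 1 to 3 members and 8 to 13 other one-carbon genes. For H151_iR4 over Vehicle it gave 1803 to 2392 called genes and 0 to 3 members. Deviations of same-numbered SCC1 libraries had correlations from -0.069 to 0.187, and the main fits did not pair the numbers. With 3 libraries per group these correlations cannot decide whether the numbers pair them. With the replicate number as a block, 9225 genes and 7 members were called in R4KO_1, 9439 and 6 in R4KO_2, and 10058 and 6 in iR4, and no count moved by over 1.5 times. Every sample correlated best with its own number in 2 of 12 comparisons, H151 over R4KO_2 and the tumors. In the tumors the number pairs had r = 0.136 and the block called 0 genes. With 2 tumors per genotype the other pairing must mirror this value, at -0.136, so it cannot decide the question there.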

Other observations

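Other lists bear on the same cells. Of 14 ATF4 response genes, the amino acid and integrated stress program, 12 rose and 2 fell in iR4 over Vehicle (median 1.53 on the log2 scale), and 3 rose and 11 fell in H151_iR4 over iR4 (median -1.29), at an adjusted p under 0.05 in edgeR. Over all genes 37.1% were higher and 34.8% lower in iR4, and 35.1% higher and 36.3% lower in H151_iR4. In the knockouts 8 rose and 3 fell in R4KO_1, and 8 rose and 5 fell in R4KO_2, with medians of 0.33 and 0.48, beside 33.0% of all genes higher and 31.4% lower in R4KO_1 and 34.0% and 32.2% in R4KO_2. With H151 in KO_2 cells 6 rose and 6 fell over R4KO_2, beside 35.7% and 37.0% of all genes, and 6 rose and 3 fell over R4KO_1, beside 33.0% and 35.3%. ASNS, asparagine synthetase, named after its values were seen, was at -0.30 over R4KO_2 and 0.27 over R4KO_1 (adjusted p = 0.00983 and 0.0207, edgeR).

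Of 18 deoxynucleotide and G1/S genes, 2 rose and 13 fell in R4KO_1, 4 rose and 13 fell in R4KO_2, and 4 rose and 11 fell in iR4, with medians of -0.17, -0.14 and -0.14, beside the shares of all genes given for those comparisons. Of 8 MYC network genes, 3 rose and 3 fell in R4KO_1, 4 rose and 2 fell in R4KO_2, and 5 rose and 2 fell in iR4, beside the same shares of all genes. MYC and MXD1 were named after their values were seen. MYC was at 249.3 ± 16.3 CPM in R4KO_1, 262.4 ± 4.58 in R4KO_2, 479.9 ± 37.6 in KO_2 with H151, 448.7 ± 18.1 in KO_2 with BX_795 and 357.8 ± 13.2 in Ctrl. In the iR4 experiment MYC was at 344.3 ± 11.2 CPM in iR4, 487.8 ± 1.27 in H151_iR4 and 459.7 ± 16.1 in Vehicle. MXD1, a repressor of MYC targets, was at 44.96 ± 12 CPM in R4KO_1, 75.3 ± 2.93 in R4KO_2, 14.5 ± 0.11 in KO_2 with H151, 12.4 ± 0.65 in KO_2 with BX_795 and 12.9 ± 1.41 in Ctrl. It was at 70.8 ± 6.51 CPM in iR4, 10.6 ± 1.22 in H151_iR4 and 9.72 ± 1.64 in Vehicle.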
